A study of Mus musculus with 6 samples.

Results

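The caspases and gasdermin D carry out programmed cell death, and their transcripts were measured here in vascular smooth muscle cells with and without deletion of *Pdk4*. The group holds 8 genes, taken by name from a table of 41721: the inflammatory caspases *Casp1*, *Casp4* and *Casp12*, the initiator caspases *Casp2*, *Casp8* and *Casp9*, the executioner caspase *Casp6*, and *Gsdmd*, the gene of gasdermin D. All 8 had a row in the table, and 7 had enough reads to be tested, the exception being *Casp1*. The libraries came from cultured smooth muscle cells of the mouse abdominal aorta (MASMCs), of genotype Pdk4fl/fl or Pdk4SMKO, that had been treated with Ang II, a peptide hormone that is used to provoke aneurysm in mice. The mice were 10 weeks old and the cells were between passages 4 and 8. Ang II was given at 1 μM for 48 h in the published protocol, whereas the labels name Ang II alone. Both genotypes carried loxP sites around exons 4 to 6 of *Pdk4* and both received tamoxifen, while Pdk4SMKO mice also carried a tamoxifen-inducible Cre driven by *Myh11*, a gene of contractile smooth muscle. The comparison asks how the loss of *Pdk4* in Ang II-treated MASMCs goes together with the transcripts of the pyroptosis and apoptosis machinery. There were 3 libraries per genotype, with no untreated cells among them, and they are described as biological replicates. From how many animals the cultures came is not stated, so that p-values measure the spread between these libraries.

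Caspases are proteases that are made as inactive precursors and are activated on protein platforms. Inflammasomes activate caspase-1, and bacterial lipopolysaccharide in the cytosol activates caspase-11, the protein that mouse *Casp4* encodes. Both cleave gasdermin D, whose amino-terminal fragment forms pores in the plasma membrane, the step that defines pyroptosis. Caspase-8 and caspase-9 start apoptosis from death receptors and from mitochondria, caspase-2 is activated on the PIDDosome, and the executioner caspases dismantle the cell. All of these steps are set by cleavage of the proteins, which RNA counts do not measure. Because the RNA came from whole cultures, fewer cells of a type and less RNA per cell cannot be told apart.

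The libraries held 16526044 to 22481670 counted reads each. A count of 3, taken as the floor of detection, corresponded to between 0.132 and 0.227 CPM, where CPM is a count brought to a common library total after scaling by TMM, a method that sets libraries against each other with most genes assumed unchanged. Yet 37.1% of all genes tested were lower and 42.0% higher at an adjusted p under 0.05 and any fold, which goes against that assumption. The TMM factors lay between 0.784 and 0.838 in Pdk4fl/fl and between 1.21 and 1.26 in Pdk4SMKO libraries. *Pdk4* stood at 35.0 ± 3.07 CPM (SD, n = 3) in Pdk4fl/fl and 6.93 ± 2.11 CPM (SD, n = 3) in Pdk4SMKO cells. The smooth muscle label was checked on 8 markers, whose summed level lay between 786 and 811 CPM in Pdk4fl/fl and between 725 and 955 CPM in Pdk4SMKO libraries, although *Myh11* itself reached only 0.613 and 2.39 CPM. These sums hid opposite moves, since 3 of the 8 were lower and 4 higher at a fold change of at least 2. Of all genes tested, 26.5% were lower and 32.8% higher at the same limits, and the marker counts are to be read beside these shares. *Acta2* went from 233 to 701 CPM, while *Tagln* went from 253 to 52.7 CPM and *Smtn* from 280 to 57.5 CPM. Genes typical of other cells were counted in the same way. Of the 6 macrophage markers tested, 5 were higher and 1 was lower in Pdk4SMKO cells, at a fold change of at least 2. In every Pdk4fl/fl library, 5 of the 7 macrophage markers counted were at or below the floor. The 8 mesothelial markers summed to between 74.2 and 99.99 CPM in Pdk4fl/fl and between 723 and 1325 CPM in Pdk4SMKO libraries, and the 6 fibroblast markers to between 626 and 855 and between 5152 and 7054 CPM. Most of the latter was *Col1a1*, and of the 6 fibroblast markers 3 were higher, 1 was lower and 2 were not called. *Xist*, which is transcribed in female cells, was at 0.266 ± 0.0978 CPM (SD, n = 3) in Pdk4fl/fl and 19.9 ± 5.98 CPM (SD, n = 3) in Pdk4SMKO cells. The Cre transgene is Y-linked and the animal experiments are described as done in males, so that the *Xist* reads of the Pdk4SMKO libraries stand against that description. The part of these differences in the results on the caspases was not tested.

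*Casp1*, *Casp4* and *Casp12* lie side by side on chromosome 9 and are transcribed in the same direction. In the coordinates of the table, which follow the annotation of the C57BL/6NJ strain, *Casp1* (MGP_C57BL6NJ_G0034805) runs from 2205792 to 2214562, *Casp4* (MGP_C57BL6NJ_G0034806) from 2216125 to 2249033 and *Casp12* (MGP_C57BL6NJ_G0034807) from 2257526 to 2283865. Only 1562 bases separate *Casp1* from *Casp4*, and 8492 bases separate *Casp4* from *Casp12*. No other row of the table within 500 kb had a count. The 250 bases before each start site are shown because these neighbours had such different levels and changes. They are taken from RefSeq on the GRCm38.p6 assembly, a different build from that of the table, and run 5′ to 3′ on the plus strand, with the bases that matched a searched motif in capitals.
Casp1, chr9:5298267-5298516: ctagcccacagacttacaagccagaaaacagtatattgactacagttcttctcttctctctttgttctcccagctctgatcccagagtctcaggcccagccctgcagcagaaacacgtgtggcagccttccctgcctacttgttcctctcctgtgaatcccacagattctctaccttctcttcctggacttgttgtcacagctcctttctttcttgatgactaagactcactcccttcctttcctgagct
Casp4, chr9:5308599-5308848: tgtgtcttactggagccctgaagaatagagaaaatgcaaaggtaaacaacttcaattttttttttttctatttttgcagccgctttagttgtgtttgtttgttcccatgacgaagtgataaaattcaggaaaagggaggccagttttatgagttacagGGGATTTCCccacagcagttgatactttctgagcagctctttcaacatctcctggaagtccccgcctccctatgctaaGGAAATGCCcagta
Casp12, chr9:5345226-5345475: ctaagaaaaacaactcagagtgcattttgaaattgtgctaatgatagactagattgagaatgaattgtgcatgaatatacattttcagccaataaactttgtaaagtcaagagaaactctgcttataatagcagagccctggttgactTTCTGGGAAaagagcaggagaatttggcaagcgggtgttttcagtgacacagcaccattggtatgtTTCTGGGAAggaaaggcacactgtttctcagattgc
The motifs searched on both strands were GAAANNGAA for IRF factors, TTCNNNGAA for STAT factors, TGANTCA for AP-1 and GGNNTTTCC for kappa B. Before the *Casp4* start site, 2 stretches matched the kappa B letters, one from −92 to −84 and one, on the other strand, from −14 to −6. RefSeq gives *Casp4* a further start site nearby, whose window held the same 2 stretches. The window of *Casp12* held 2 matches to the STAT letters, from −102 to −94 and from −36 to −28. The windows of *Casp1*, *Casp2*, *Casp8*, *Casp9* and *Casp6* held no match to any of the 4 motifs. Among 32851 windows of the same length, 4.93% held the kappa B letters and 7.02% the STAT letters, against 7.13% for IRF and 6.75% for AP-1.

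*Casp4* fell and 4 of the other members rose in Pdk4SMKO cells. Per read of *Actb* these 4 were lower, but *Actb* itself was 9.58-fold higher in Pdk4SMKO cells. Its log2 fold change stood at percentile 90.4 of all genes tested, so that most genes are lower by that measure. Of the 7 members tested, *Casp4* was lower in Pdk4SMKO than in Pdk4fl/fl cells by at least 2-fold with an adjusted p under 0.05, in edgeR's quasi-likelihood test with Benjamini-Hochberg adjustment over 14085 genes. The same limits were passed in the lower direction by 26.5% of all genes tested. *Casp6* and *Casp8* were higher at these limits, as were 32.8% of all genes tested. With libraries scaled by their size alone *Casp9* and *Gsdmd* passed too, making 4, beside 6184 of the 14085 genes tested under that scaling. Without the limit on fold change, *Casp9* and *Gsdmd* were higher too, which makes 1 member lower and 4 higher, beside 37.1% and 42.0% of all genes tested. *Casp2* and *Casp12* did not pass at any fold with TMM, whereas by library size alone both were higher at an adjusted p under 0.05, and with upper-quartile factors *Casp2* was. For 5 of the 8 members the 3 libraries of one genotype lay wholly above those of the other, as they did for 81.8% of all genes tested. The median log2 fold change was 0.79 over the 7 members and 0.12 over all genes tested.

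**Figure D1:**
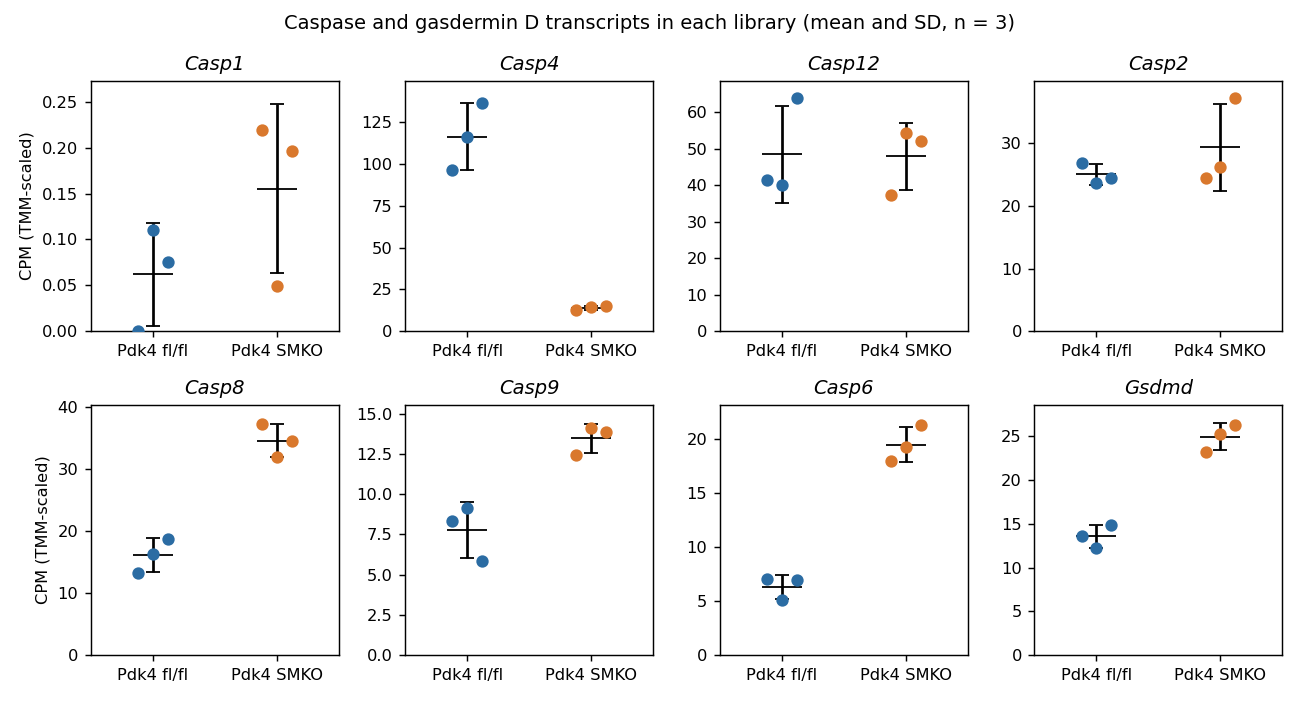
Level of each of the 8 members in CPM (vertical axes, each from 0 and on its own scale) in the 3 Pdk4fl/fl (blue) and 3 Pdk4SMKO (orange) libraries, with points for libraries, long bars for means and whiskers for the SD. *Casp4* fell from 116 to 14.1 CPM, *Casp6*, *Casp8*, *Casp9* and *Gsdmd* lay higher in every Pdk4SMKO library, and *Casp1* was close to 0 throughout.

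*Casp4* had 1445, 2117 and 1801 counts in the Pdk4fl/fl libraries and 288, 291 and 308 counts in the Pdk4SMKO libraries. Every Pdk4SMKO library was far below every Pdk4fl/fl library, and the Pdk4SMKO libraries differed little among themselves. The level was 116 ± 20.0 CPM (SD, n = 3) in Pdk4fl/fl and 14.1 ± 1.28 CPM (SD, n = 3) in Pdk4SMKO cells, which left 12.1% of the former. The log2 fold change was −3.05 with a standard error of 0.16 (edgeR, adjusted p = 9.7e-08), and it stayed between −3.16 and −2.93 when each library was left out in turn. Of the 14085 genes tested, *Casp4* ranked 809 from the most negative fold change. The study had picked *Casp4* for display from these libraries, so its direction here is no independent evidence. Macrophages express caspase-11. Among the genes that mark them, *Adgre1*, *C1qa*, *C1qb* and *Tyrobp* had 0 counts in every Pdk4fl/fl library, whereas *Cd68* was detected. The 7 macrophage markers of the table summed to between 21.4 and 38.0 CPM in Pdk4fl/fl libraries, nearly all of it *Cd68* at 31.2 CPM. In Pdk4SMKO libraries they summed to between 9.71 and 30.5 CPM, and *Cd68* was at 4.29 CPM. Within these sums, 5 of the 6 tested markers were higher by at least 2-fold and 1 was lower. However, 5 of the 7 markers were at or below the floor in every Pdk4fl/fl library. Such genes could pass the filter only through the Pdk4SMKO libraries, so that higher was the only call open to them. The shares of all genes tested were 32.8% and 26.5%. The median log2 fold change of the 6 was 7.26, a size that rests on counts at or near 0 in Pdk4fl/fl libraries. All 7 were above the floor in at least 1 Pdk4SMKO library. The part of macrophages, or of other *Cd68*-expressing cells, in the levels of *Casp4* was not tested.

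*Casp12*, the next gene along the chromosome, did not follow it. Caspase-12 has been linked to stress of the endoplasmic reticulum. It had 621, 731 and 844 counts in Pdk4fl/fl and 852, 1090 and 1065 counts in Pdk4SMKO libraries, or 48.5 ± 13.4 and 47.97 ± 9.20 CPM (SD, n = 3). The genotypes overlapped, since the highest level was in a Pdk4fl/fl library and the lowest in a Pdk4SMKO library. The log2 fold change was −0.01 with a 95% interval from −0.48 to 0.45 (edgeR, adjusted p = 0.955). Its sign depended on how libraries were scaled, and by library size alone it was 0.60 (edgeR, adjusted p = 0.0170). Set against *Casp4* within each library, which needs no scaling, *Casp12* had 0.415 ± 0.0631 reads (SD, n = 3) per read of *Casp4* in Pdk4fl/fl cells. In Pdk4SMKO cells it had 3.39 ± 0.398 (SD, n = 3), which is 8.17 times as many. With TMM this restates the 8.26-fold fall of *Casp4* beside a gene whose own level overlapped.

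*Casp1*, the caspase of the canonical inflammasomes, was at the limit of detection. Its counts were 0, 2 and 1 in Pdk4fl/fl and 5, 1 and 4 in Pdk4SMKO libraries. No Pdk4fl/fl library was above the floor of 3 counts, and 2 Pdk4SMKO libraries were. Over each genotype these make 3 reads of 57280253 and 10 reads of 51302653, or after TMM scaling a ratio of 2.45 with a 95% counting interval from 0.630 to 13.8. A difference in *Casp1* was therefore not detectable at this depth (exact two-sided permutation test, p = 0.3), and the interval covers counting error alone. The lack of reads is not shared by its neighbours, for which 5363 reads of *Casp4* stood beside the 3 of *Casp1* in Pdk4fl/fl cells. No stretch of 31 bases of *Casp1* transcripts occurred in *Casp4* or *Casp12* transcripts of the GENCODE vM21 annotation, and 0 of the 1467 such stretches of *Casp1* occurred in any other gene.

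Among the initiator caspases, *Casp8* (MGP_C57BL6NJ_G0016449, chromosome 1 from 61066741 to 61112266) changed most. Caspase-8 is recruited to death receptors by FADD, and it also restrains necroptosis. It had 199, 296 and 247 counts in Pdk4fl/fl and 847, 641 and 701 counts in Pdk4SMKO libraries. All 3 Pdk4SMKO libraries were above all Pdk4fl/fl libraries. The levels were 16.1 ± 2.72 and 34.5 ± 2.65 CPM (SD, n = 3), with a log2 fold change of 1.10 and a standard error of 0.16 (edgeR, adjusted p = 0.000106). Without Pdk4fl/fl replicate 1, the library with the lowest level, the log2 fold change was 0.98, just under the limit of 2-fold. Of its 31-base stretches, 8.64% occur in another gene too, most of them in *Gm20257*, and how many of its reads this touches was not measured.

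*Casp9* (MGP_C57BL6NJ_G0029483, chromosome 4 from 149936636 to 149958120), whose protein is activated by APAF1 and cytochrome c on the apoptosome, was also higher. It had 125, 167 and 77 counts in Pdk4fl/fl and 283, 284 and 283 counts in Pdk4SMKO libraries. The Pdk4SMKO counts were almost alike, whereas Pdk4fl/fl replicate 3 stood below the other two. The level rose from 7.78 ± 1.74 to 13.5 ± 0.923 CPM (SD, n = 3), a log2 fold change of 0.79 with a standard error of 0.20 (edgeR, adjusted p = 0.00474). This is under 2-fold, and it was 0.61 at the lowest, when that replicate was left out.

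*Casp2* (MGP_C57BL6NJ_G0031082, chromosome 6 from 41797355 to 41816436) did not pass the test. It had 404, 432 and 324 counts in Pdk4fl/fl and 558, 528 and 761 counts in Pdk4SMKO libraries, or 25.1 ± 1.67 and 29.4 ± 6.95 CPM (SD, n = 3). Pdk4SMKO replicate 3 was high at 37.3 CPM, while the other libraries of both genotypes lay between 23.7 and 26.9 CPM. The log2 fold change was 0.23 with a 95% interval from −0.17 to 0.62 (edgeR, adjusted p = 0.254). This depended on the scaling, as the log2 fold change was 0.44 with upper-quartile factors (edgeR, adjusted p = 0.0400) and 0.83 by library size alone (edgeR, adjusted p = 0.00171).

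*Casp6* (MGP_C57BL6NJ_G0028292, chromosome 3 from 137330763 to 137344258) rose more than any other tested member. Caspase-6 is an executioner caspase that cleaves nuclear lamins. It had 105, 92 and 92 counts in Pdk4fl/fl and 410, 387 and 434 counts in Pdk4SMKO libraries. The genotypes were well apart, with the lowest Pdk4SMKO library at 18.0 CPM and the highest Pdk4fl/fl library at 6.999 CPM. The levels were 6.34 ± 1.11 and 19.5 ± 1.66 CPM (SD, n = 3), with a log2 fold change of 1.63 and a standard error of 0.19 (edgeR, adjusted p = 1.97e-05), between 1.49 and 1.71 with each library left out.

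*Gsdmd* (MGP_C57BL6NJ_G0022367, chromosome 15 from 78738745 to 78743810), the pore former downstream of caspase-1 and caspase-11, moved against *Casp4*. It had 204, 223 and 197 counts in Pdk4fl/fl and 530, 509 and 537 counts in Pdk4SMKO libraries. Replicates were close in both genotypes, and the genotypes did not overlap. The levels were 13.6 ± 1.33 and 24.98 ± 1.57 CPM (SD, n = 3), with a log2 fold change of 0.88 and a standard error of 0.15 (edgeR, adjusted p = 0.000297). The change was under 2-fold with TMM, and reached a log2 fold change of 1.09 with upper-quartile factors and 1.49 by library size alone. Relative to *Casp4* in the same library, *Gsdmd* went from 0.119 ± 0.0196 to 1.78 ± 0.0543 reads (SD, n = 3) per read of *Casp4*. This is a 14.98-fold change, most of which is the fall of *Casp4*.

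**Figure D2:**
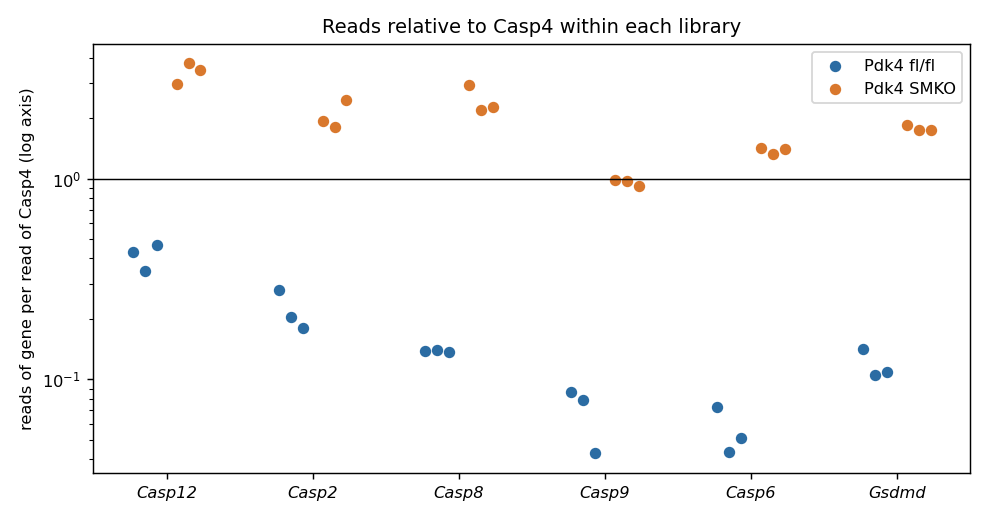
Reads of each gene per read of *Casp4* in the same library (vertical log axis), with 1 point per library, Pdk4fl/fl in blue and Pdk4SMKO in orange, and a line at 1. All Pdk4fl/fl points are below 1, and in Pdk4SMKO libraries *Casp12*, *Casp2*, *Casp8*, *Casp6* and *Gsdmd* are above 1. The reads are not divided by gene length, and per kilobase the Pdk4SMKO levels of *Casp2* and *Casp6* overlap that of *Casp4*.

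The sizes of these changes depended on the scaling of the libraries, which moves all genes by nearly the same amount. The median log2 fold change of all tested genes was 0.12 with TMM, 0.09 with RLE factors, 0.33 with upper-quartile factors and 0.72 by library size alone, so that changes were also read against that median, a value that by construction hardly depends on the scaling. Relative to it, *Casp4* lay at −3.16 or −3.17 on the log2 scale under all 4 scalings, *Casp6* at 1.51, *Casp8* between 0.98 and 0.99, *Gsdmd* at 0.76, *Casp9* between 0.66 and 0.67, *Casp2* at 0.11 and *Casp12* at −0.13. *Casp6*, *Casp8*, *Casp9* and *Gsdmd* were higher under each of these scalings, although all of them, and *Casp2*, were lower when expressed per read of *Actb*. *Actb*, often used as a reference gene, was itself 9.58-fold higher in Pdk4SMKO cells. Per read of *Casp4* within a library, *Casp6* was 24.9-fold higher in Pdk4SMKO cells, *Casp8* 17.9-fold, *Casp9* 13.8-fold and *Casp2* 9.38-fold. The fall of *Casp4* is part of each of these ratios, which were chosen after it was seen. With TMM, a gene with no change of its own would show about the 8.17-fold of *Casp12*. By library size alone that reading does not hold, since *Casp12* and *Casp4* then had log2 fold changes of 0.60 and −2.44.

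**Figure D3:**
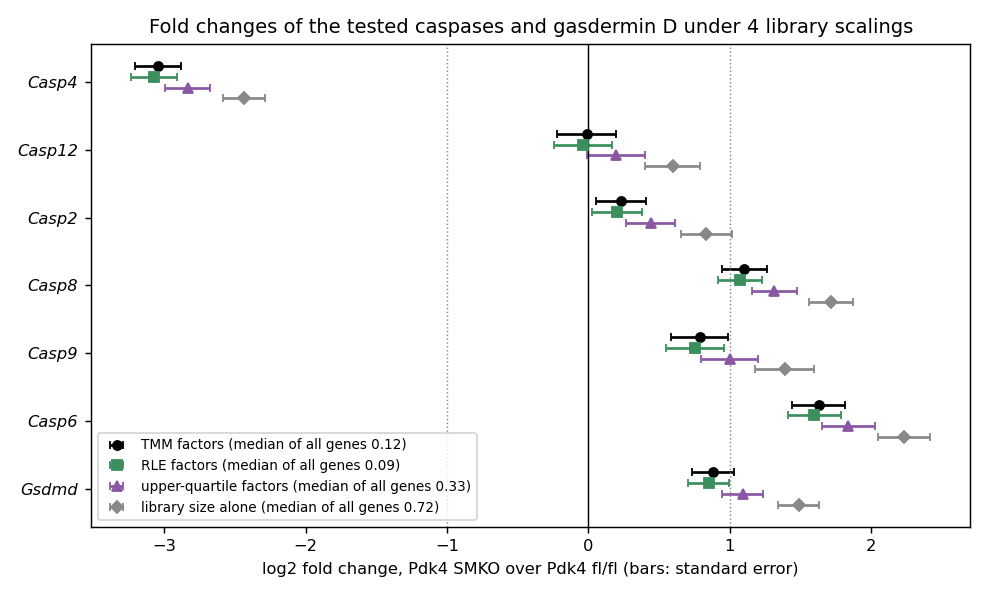
Log2 fold change of Pdk4SMKO over Pdk4fl/fl cells (horizontal axis, bars for the standard error) for the 7 tested members, under 4 scalings of the libraries marked by colour and shape. All genes shift together, by as much as the median of all genes shifts, and *Casp4* stays below −2 under each scaling.

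Levels were compared among the members per kilobase of gene length. In Pdk4fl/fl cells *Casp4* was the highest of the 8, at 31.3 ± 5.39 CPM per kb (SD, n = 3), followed by *Casp12* at 12.6, *Gsdmd* at 7.65, *Casp8* at 5.55 and *Casp2* at 3.55. *Casp9* at 1.496 and *Casp6* at 1.13 CPM per kb overlapped, and *Casp1* was last at 0.0413. The order was different in Pdk4SMKO cells, where *Gsdmd* at 14.1, *Casp12* at 12.5 and *Casp8* at 11.9 CPM per kb came first, and neighbours in this order overlapped. *Casp2* at 4.16, *Casp4* at 3.79 ± 0.345 (SD, n = 3) and *Casp6* at 3.50 CPM per kb overlapped their neighbours as well, above *Casp9* at 2.59 and *Casp1* at 0.104.

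The make-up of the transcripts of the 7 caspases in the group changed accordingly. *Casp4* supplied 56.2% ± 2.25 (SD, n = 3) of their summed level per kilobase in Pdk4fl/fl cells and 9.84% ± 0.171 (SD, n = 3) in Pdk4SMKO cells. The share of *Casp8* went from 9.96% ± 0.487 to 31.1% ± 4.63 (SD, n = 3). Taken by class, the inflammatory caspases went from 78.7% ± 2.40 to 42.3% ± 4.33, the initiators from 19.2% ± 2.13 to 48.6% ± 4.20, and *Casp6* from 2.07% ± 0.483 to 9.06% ± 0.188 (SD, n = 3). The genotypes did not overlap for any of these (exact two-sided permutation test, p = 0.1 for each). Shares add up to a whole, so that a fall in *Casp4* alone raises all the others.

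**Figure D4:**
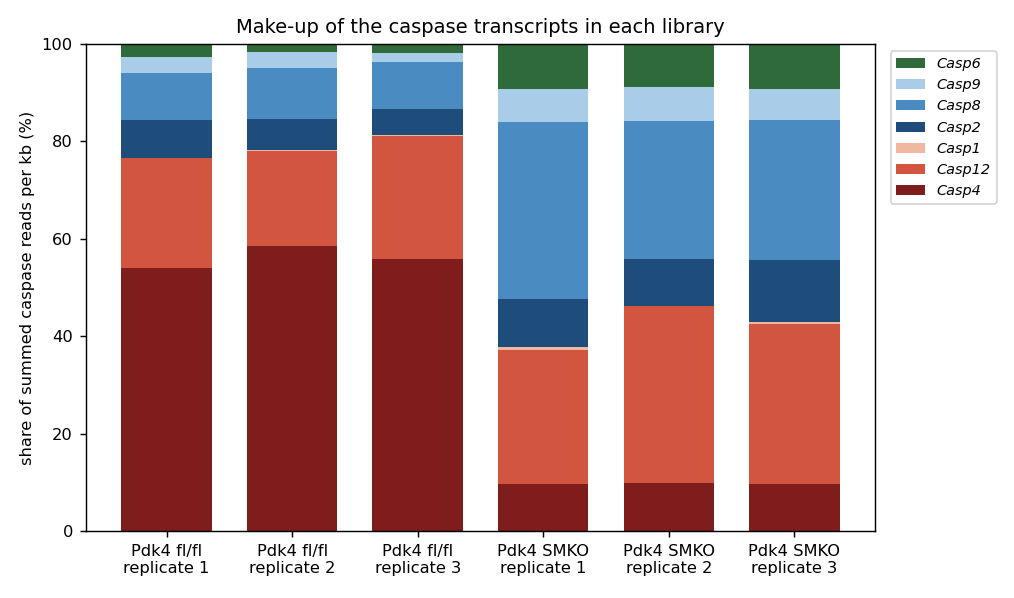
Share of each of the 7 caspases of the group in their summed reads per kilobase (vertical axis, percent) in each of the 6 libraries, with inflammatory caspases in reds, initiators in blues and *Casp6* in green. *Casp4* makes up 54.1% to 58.6% in the Pdk4fl/fl libraries and 9.67% to 10.01% in the Pdk4SMKO libraries.

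The partners of these proteins were counted on 10 lists. Of 110 genes counted, 100 had a row and 77 were tested, of which 20 were lower and 29 higher at a fold change of at least 2, or 26.0% and 37.7%, beside 26.5% and 32.8% of all genes tested. Without the limit on fold change, 31 of the 77 were lower and 34 higher, beside 37.1% and 42.0% of all genes tested. The counts on each list below are to be read beside the shares of 26.5% and 32.8%. The lists moved both ways, and their joint median log2 fold change was 0.04.

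The sensors above caspase-1 were scarce. *Nlrp3*, which senses cell damage, had 14, 18 and 5 counts in Pdk4fl/fl and 5, 3 and 0 counts in Pdk4SMKO libraries. *Aim2*, a sensor of DNA, had 19, 11 and 15 against 3, 3 and 0 counts. *Pycard*, the adaptor that joins sensors to caspase-1, had 12, 4 and 6 against 14, 2 and 8 counts. None of the 3 passed the filter, so their low counts were not tested across genes. In CPM *Nlrp3* and *Aim2* did not overlap between genotypes and *Pycard* did, although the raw counts of *Nlrp3* met at 5. Of all genes tested, 81.8% did not overlap. The exact two-sided permutation p was 0.1, 0.1 and 0.6, and 0.1 is the smallest p that this test can give here. In all, 5 of 14 sensor and adaptor genes in the table were tested. *Nod2* and *Txnip* were lower, with log2 fold changes of −3.21 and −1.29. *Naip2*, *Nod1* and *Nek7* were higher, with 1.59, 1.51 and 1.24, but *Naip2* had only 7, 3 and 5 counts in Pdk4fl/fl libraries. *Nlrp3*, *Aim2* and *Nod2* had been picked for display from these libraries as *Casp4* had, so that their directions are no independent evidence either. NEK7 is a partner of NLRP3, and its gene stood at 47.8 to 54.7 CPM in Pdk4SMKO and 18.9 to 23.7 CPM in Pdk4fl/fl libraries.

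Beside gasdermin D, the genes of pyroptosis substrates and effectors were 1 lower and 3 higher of 5 tested. *Ninj1*, whose protein ruptures the membrane of dying cells, rose from 21.9 ± 2.18 to 64.9 ± 6.24 CPM (SD, n = 3), a log2 fold change of 1.57 (edgeR, adjusted p = 2.58e-06). *Gsdme*, listed under its older name *Dfna5*, another gasdermin, had a log2 fold change of 1.71 (edgeR, adjusted p = 0.00024), and *Il18*, a substrate of caspase-1, one of 1.55 (edgeR, adjusted p = 0.0453) with overlap between genotypes. *Mlkl*, the pore former of necroptosis, fell by 1.12 on the log2 scale. *Il1b* had a single count in 1 Pdk4SMKO library and 0 in the others.

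Movement in both directions was also seen in the genes around caspase-11. Guanylate-binding proteins act on bacterial membranes upstream of caspase-11, and the immunity-related GTPases were counted with them. Of 6 tested, *Gbp2* and *Gbp3* were lower, with log2 fold changes of −1.64 and −1.53, and *Irgm2*, *Irgm1* and *Gbp7* were higher, with 3.84, 2.93 and 2.90. In Pdk4fl/fl libraries *Gbp7* had only 0, 3 and 9 counts and *Irgm2* 15, 16 and 9. Among 16 tested genes that regulate *Casp4* and *Gsdmd* transcription, 4 were lower and 5 higher. The transcription factor genes *Rela*, *Irf1* and *Irf2* and the adaptor gene *Ticam1* were the lower ones, with log2 fold changes of −3.40, −3.17, −2.36 and −2.64. *Irf2*, whose protein drives *Gsdmd* transcription in other cells, went from 127 ± 14.8 to 24.8 ± 2.92 CPM (SD, n = 3), while *Gsdmd* rose. *Tlr3*, *Irf3* and *Tlr4* were higher, with 2.84, 1.48 and 1.30, and these include the receptor for lipopolysaccharide outside the cell.

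**Figure D5:**
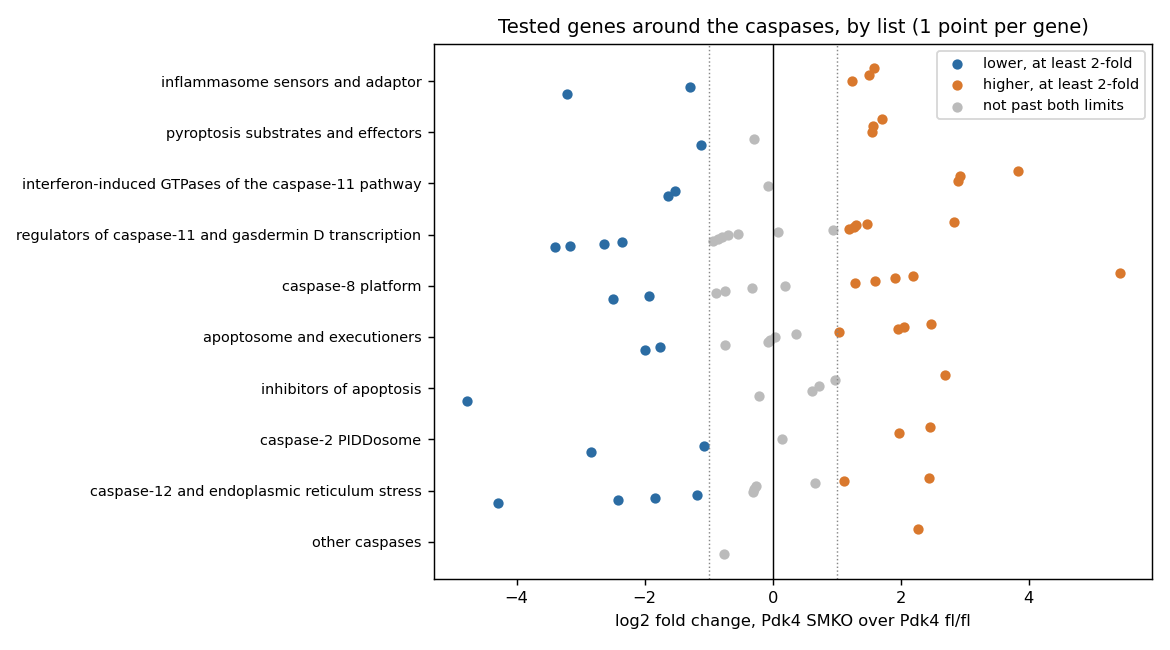
Log2 fold change of Pdk4SMKO over Pdk4fl/fl cells (horizontal axis) for the tested genes of the 10 lists (rows), 1 point per gene, in blue where lower and in orange where higher at an adjusted p under 0.05 and at least 2-fold, and in grey otherwise. Of the 10 lists, 9 hold points on both sides past the limits, and the list of other caspases has 1 on the higher side alone.

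On the platform of caspase-8, 2 genes were lower and 5 higher of 11 tested. *Ripk3*, the kinase of necroptosis, had the largest change, from 0.604 to 1.00 CPM in Pdk4fl/fl libraries to 27.5 to 43.0 CPM in Pdk4SMKO libraries, a log2 fold change of 5.43 (edgeR, adjusted p = 6.43e-08). *Cflar*, which encodes the caspase-8 regulator c-FLIP, *Tradd* and *Fadd* had 2.20, 1.91 and 1.60. *Traf2* and the death receptor gene *Tnfrsf10b* were lower, with −2.49 and −1.94.

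Around caspase-9, 2 genes were lower and 4 higher of 11 tested. *Bax* and *Bak1*, whose proteins permeabilize mitochondria, had log2 fold changes of −1.99 and −1.77, whereas *Dffa*, *Dffb* and *Parp1*, which encode substrates of executioner caspases and the nuclease they release, had 2.48, 2.05 and 1.95. In Pdk4fl/fl libraries *Dffb* had only 13, 9 and 4 counts. *Apaf1*, the scaffold of the apoptosome, was at 0.36 (edgeR, adjusted p = 0.0404), and *Cycs*, the gene of cytochrome c, at −0.74 (edgeR, adjusted p = 0.0041), both under 2-fold. Of the 6 tested genes for inhibitors of apoptosis, *Birc3* fell from 340 to 12.4 CPM, a log2 fold change of −4.78, and *Xiap*, an inhibitor of caspase-9, rose from 15.7 ± 1.66 to 102 ± 15.4 CPM (SD, n = 3), a log2 fold change of 2.70. The other 4 changed by less than 2-fold or did not pass the test.

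On the list of caspase-2, *Pidd1* and *Cradd*, which form the PIDDosome, had log2 fold changes of 2.46 and 1.97 while *Casp2* did not pass. *Trp53* and *Nfya* were lower, with −2.84 and −1.08. On the list of caspase-12 and the endoplasmic reticulum, 4 genes were lower and 2 higher of 10 tested. The stress response genes *Ddit3*, *Atf4* and *Hspa5* had log2 fold changes of −4.29, −2.42 and −1.84, and the calpain genes *Capn1* and *Capn2* had 2.44 and 1.11, while the level of *Casp12* overlapped between genotypes. Of the list of other caspases and CARD proteins, 2 were tested and *Card10* was higher, with 2.27.

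The genes whose log2 CPM ran most nearly parallel to that of *Casp4* over the 6 libraries were *Derl1*, *Atp6v1f* and *Katna1*, with log2 fold changes of −1.61, −2.70 and −3.23. For *Gsdmd* they were *Angel2*, *Ogt* and *Calhm2*, with 0.91, 1.69 and 1.54. Pearson's r was at least 0.99955 for each, out of 8465 protein-coding genes at 10 CPM or more. The points shared their libraries and fell into 2 genotypes, and r exceeded 0.95 for 2495 genes with *Casp4* and for 1768 with *Gsdmd*, so that these genes stand for a large number with the same pattern.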

How the data were processed

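The 6 libraries were deposited as a single table of counts, raw read numbers for each gene that had not been normalized. Gene lengths, a different quantity in base pairs, were taken from the same table for levels per kilobase. The aligner, the counting program and the use of strand are not given in the sources used here. The labels name GRCm39, whereas the identifiers and coordinates follow the C57BL/6NJ strain annotation. The paper and the labels name different library kits.

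The tests ran under edgeR 4.0.16 (R 4.3.3), with filterByExpr, TMM and the quasi-likelihood test on genotype, with Benjamini-Hochberg adjustment over 14085 genes. Calls needed a change of at least 2-fold and an adjusted p under 0.05. Exact two-sided permutation tests cannot give a p under 0.1 with 3 libraries against 3. DESeq2 1.42.0 and limma 3.58.1 served as alternatives, beside RLE, upper-quartile and library-size scaling, other filters, a replicate block and leaving out each library. On simulated counts with 200 changed genes in this comparison, edgeR recovered 191 of the 198 left by the filter, with 3 false calls among 13975 genes. In the libraries themselves, 3733 of 14085 genes were lower and 4616 higher at the limits for calls. Recovery with that many changed genes was not tested.

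The members and lists were chosen with earlier results of these data known. All members were named, with up to 3 called genes per list and direction and the direct partners of the members, the checks on markers, *Xist* and *Actb* being additions. Ratios to *Casp4* and *Actb* and limma-voom were added after seeing the data. Marker lists were smooth muscle, macrophage, mesothelial, endothelial and fibroblast, and the endothelial markers summed to between 14.4 and 22.8 CPM in Pdk4fl/fl and between 2.64 and 5.71 CPM in Pdk4SMKO libraries. Promoter windows were found for 7 of the 8 members. Some listed genes are not reported here and were left out of the list counts.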

Additional observations from a re-analysis of the deposited data

How the results depend on the processing

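*Casp4* stayed lower at both limits under every alternative that had a test, and *Casp6* stayed higher except per read of *Actb*. Of the 7 tested members, 4 in place of 2 were higher by library size alone, and also without the limit on fold change. With each library left out in turn, between 1 and 2 were higher, and 1 was higher without Pdk4fl/fl replicate 1, where *Casp8* had a log2 fold change of 0.98. The number of lower genes on the lists went from 20 to 31 without the limit on fold change, by construction. The log2 fold change of *Casp12* changed sign to 0.20 with upper-quartile factors, 0.60 by library size alone, 0.036 with no filter, 0.087 with at least 10 counts in every library, 0.0061 with limma-voom, 0.22 without Pdk4fl/fl replicate 3 and 0.15 without Pdk4SMKO replicate 1, and with each library left out it lay between −0.12 and 0.22. Per read of *Actb*, the log2 ratios of *Casp2*, *Casp8*, *Casp9*, *Casp6* and *Gsdmd* were −3.06, −2.15, −2.45, −1.63 and −2.38, with *Actb* itself higher by 3.26 on the log2 scale. By library size alone *Casp9* reached 1.39, and *Gsdmd* reached 1.49, or 1.09 with upper-quartile factors, past the limit of 2-fold. Over all genes, library size alone gave 2390 lower and 6184 higher genes in place of 3733 and 4616, and the cause was not tested.

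The deviations of libraries with the same replicate number correlated at 0.05, 0.09 and 0.23, so that the numbers were not taken to pair the samples. With a replicate block 1 member was lower and 2 were higher, and 3704 and 4577 genes in all. Depth limited *Casp1*, with 3 and 10 reads per genotype.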
